A study of Mus musculus with 20 samples.

Results

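The expression of 10 cytokine genes that steer immune responses toward type 1, type 2 or regulatory programmes was measured in eosinophils sorted from mouse lung. The genes are Il4, Il13, Il6, Il10, Il12a, Il12b, Il23a, Il27, Ebi3 and Il15. They were chosen by name, matched from symbol to Ensembl identifier, and make up 10 of the 49315 gene identifiers counted. RNA sequencing compared 2 groups of 5 libraries, each library made from lungs pooled from 3 to 5 mice. The resting group came from the lungs of untreated C57BL/6 mice. The day 7 group came from Balb/c lungs transplanted into C57BL/6 recipients and collected 7 days later, without costimulatory blockade according to the sample titles, although the protocol text shared by all samples mentions only transplants with blockade. Costimulatory blockade withholds the accessory signals that T cells need for activation, and the labels call the eosinophils in the grafts recipient cells. The sources used here do not give age, sex or the agents of the blockade, and grafts with blockade were not analysed here.

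Interleukin-4 and interleukin-13 are the signature cytokines of type 2 immunity and signal through STAT6. Interleukin-12, a dimer of the Il12a and Il12b chains, drives type 1 T cells and natural killer cells through STAT4. The Il12b chain also pairs with Il23a to form interleukin-23, a cytokine of type 17 immunity, Ebi3 pairs with Il27 to form interleukin-27, and Ebi3 and Il12a have been described together as interleukin-35. Interleukin-6 and interleukin-10 both signal through STAT3, one mostly inflammatory and the other restraining, and interleukin-15 is presented on Il15ra to sustain natural killer and memory CD8 T cells. Eosinophils are known to store interleukin-4 and to carry its transcript at rest.

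RefSeq promoter windows on GRCm38.p6 matched 6 of the 10 genes, in 8 windows, and none was matched for Il10, Il23a, Il27 and Il15. The 250 bases before the annotated start are shown for 4 genes whose levels stood at different places, the abundant Il4 and Il6, the scarce Il13 next to Il4 on the same chromosome, and Il12b. Capitals mark letters found on either strand for NF-kB (GGG, then any 2 bases, then TTTCC), AP-1 (TGANTCA), the interferon-stimulated response element, abbreviated ISRE (GAAA, any 2 bases, GAAA), the STAT site called GAS (TTCNNNGAA), NFAT (TGGAAA) and the TATA box (TATAAA).
Il6 (chr5:30012864-30013113, plus strand): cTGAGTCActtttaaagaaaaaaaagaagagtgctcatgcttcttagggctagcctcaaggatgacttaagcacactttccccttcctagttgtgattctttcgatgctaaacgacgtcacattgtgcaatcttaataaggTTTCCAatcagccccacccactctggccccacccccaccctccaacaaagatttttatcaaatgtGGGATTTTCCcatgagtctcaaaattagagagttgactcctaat
Il12b (chr11:44399813-44400062, plus strand): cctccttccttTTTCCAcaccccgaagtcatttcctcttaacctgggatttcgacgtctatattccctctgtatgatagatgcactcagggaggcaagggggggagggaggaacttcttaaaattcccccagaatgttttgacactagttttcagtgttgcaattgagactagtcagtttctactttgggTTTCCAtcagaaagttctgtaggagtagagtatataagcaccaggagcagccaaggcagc
Il4 (chr11:53618666-53618915, minus strand): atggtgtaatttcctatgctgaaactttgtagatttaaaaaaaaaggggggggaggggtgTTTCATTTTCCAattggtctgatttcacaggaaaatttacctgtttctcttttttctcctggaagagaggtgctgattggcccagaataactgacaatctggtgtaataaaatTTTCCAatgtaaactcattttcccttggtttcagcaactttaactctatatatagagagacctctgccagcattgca
Il13 (chr11:53634703-53634952, minus strand): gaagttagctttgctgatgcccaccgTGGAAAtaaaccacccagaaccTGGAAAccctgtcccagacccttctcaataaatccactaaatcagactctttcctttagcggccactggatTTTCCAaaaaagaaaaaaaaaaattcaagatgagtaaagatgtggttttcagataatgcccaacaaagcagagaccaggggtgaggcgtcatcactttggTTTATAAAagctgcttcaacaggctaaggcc
The Il6 window held the NF-kB letters from 44 to 35 bases before the start, found in 1.41% of 32851 windows of this length, the AP-1 letters, found in 6.75%, and 1 NFAT match. NFAT letters stood in 18.6% of all windows, and the windows of Il12b, Il4 and Il13 held 2, 2 and 3 of them. The Il4 window also held the ISRE letters, found in 2.98% of windows, which shared 4 bases with the first NFAT match. The Il13 window held TATA letters on both strands near its start, overlapping each other, against 12.4% of windows with any. GAS letters stood in 7.02% of all windows and in none of these. The second Il4 window, both Il12a windows and the Ebi3 window held none of the 6 motifs. A match describes letters only and shows no binding.

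All 10 genes had enough counts to be tested, and 7 of them rose in the day 7 grafts while none fell. Those that rose were Il6, Il10, Il12b, Il23a, Il27, Ebi3 and Il15. Il4, Il13 and Il12a did not pass the test. At an adjusted p below 0.05 in edgeR's quasi-likelihood test, 23.3% of the 16500 genes tested were called higher and 23.4% lower, so nearly 1 in 4 genes rises in this comparison. The 5 largest rises (Il23a, Il10, Il27, Il12b and Il6) were called and at least 2-fold, as were 9.08% of the genes tested. In 6 of the 10 genes, those that rose except Il15, every graft library lay above every resting library, against 16.4% of genes tested. The median log2 fold change, day 7 minus resting, was 1.21 over the 10 genes and 0.05 over all genes tested. Levels are CPM, counts scaled to the library's TMM-adjusted total, and the plot of levels by library shows all 10.

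**Figure D1:**
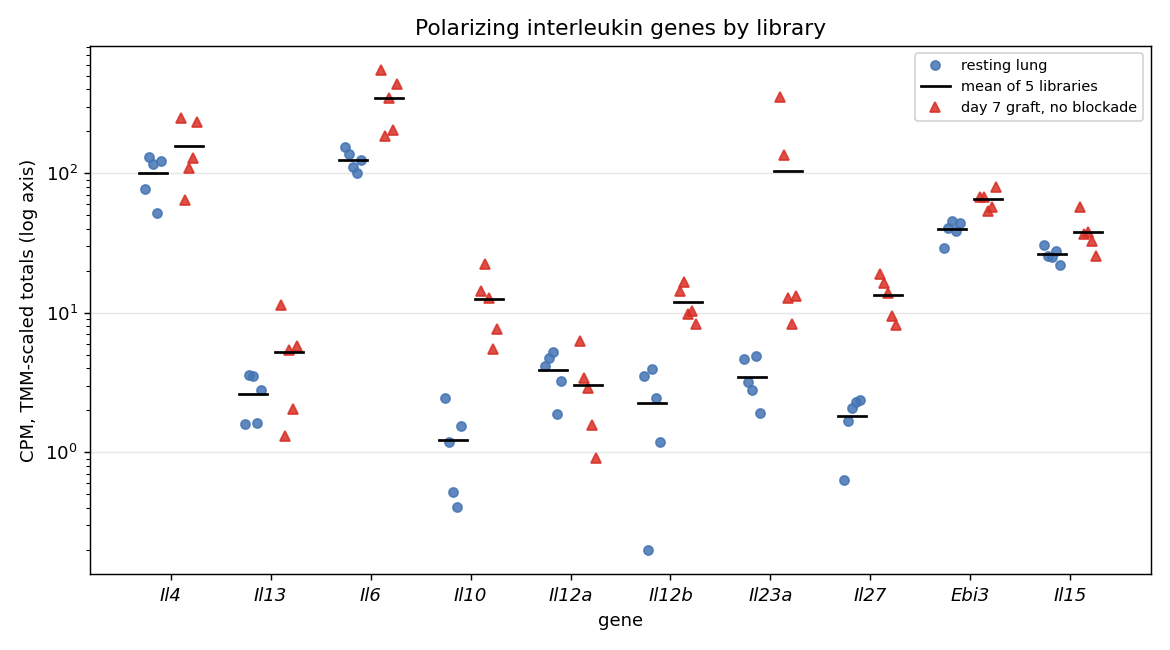
Levels of the 10 interleukin genes in each library, as CPM with TMM-scaled totals on a log axis; circles are the 5 resting libraries, triangles the 5 day 7 graft libraries without blockade, and bars the group means. Il23a in the grafts spans 8.30 to 353 CPM, whereas Ebi3 spans 53.7 to 79.8 CPM.

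Total counts were 6666577 to 12883144 per resting library and 15695074 to 26683784 per day 7 library, and the groups stood in separate deposited tables, so a batch or depth difference and the group difference cannot be told apart. Where nothing says that pools were raised or operated on separately, p-values measure only the spread between these pools. Ccr3 and Siglecf, surface markers of eosinophils, were present in every library, at 159 to 811 CPM and 105 to 300.1 CPM. Markers of other cell types also differed between the groups. The counts that follow stand beside 23.3% of all genes tested called higher and 23.4% called lower. T cell markers were higher in 12 of 12 cases, with sums of 105 to 148 CPM in resting and 409 to 1038 CPM in graft libraries, and monocyte and macrophage markers were higher in 12 of 14, with sums of 6485 to 10673 and 12510 to 24704 CPM. Mast cell and basophil markers were higher in 2 and lower in 1 of the 8 tested, with sums of 953 to 1131 and 736 to 2369 CPM. Eosinophil markers were higher in 1 and lower in 6 of 11, with a median log2 fold change of -1.79. Their sums were 2095 to 3894 and 1321 to 4089 CPM. The most abundant of them, Alox15, Adgre1 and Ccr3, were not called (edgeR adjusted p = 0.728, 0.752 and 0.548). Natural killer cell markers were higher in 4 of 7. Dendritic cell markers were higher in 5 and lower in 1 of 10, with sums of 178 to 255 and 264 to 329 CPM. Neutrophil markers were lower in 1 of 8, with sums of 7886 to 11229 CPM in resting and 4814 to 8827 CPM in graft libraries. B cell markers were lower in 5 of 6, and endothelial and epithelial markers in 7 of 7 each. Epithelial sums were 3273 to 5865 CPM in resting and 25.2 to 420 CPM in graft libraries, and endothelial sums 1529 to 2124 and 78.5 to 133 CPM. In these libraries more cells of a type and more RNA per cell cannot be told apart, and the part of the other cell types in the results that follow was not tested.

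The type 2 cytokine gene Il4 (ENSMUSG00000000869, chr11:53602982-53618669, minus strand) was already abundant in resting lung and did not pass the test. It measured 77.3, 129.6, 116, 51.9 and 122 CPM in resting libraries 1 to 5 and 247, 64.4, 109, 127 and 234 CPM in day 7 libraries 1 to 5. Resting libraries 1 and 4 were the lowest of their group and day 7 libraries 1 and 5 the highest of theirs, and the groups overlapped, since day 7 library 2 lay below 4 resting libraries. The log2 fold change was 0.65 ± 0.35 (SE, n = 5 per group, edgeR adjusted p = 0.149). Without day 7 library 2 it was 0.86 with an adjusted p of 0.0277.

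Its neighbour Il13 (ENSMUSG00000020383, chr11:53631324-53634702, minus strand), the effector cytokine of airway type 2 disease, was scarce in both groups. It measured 1.59, 3.58, 3.51, 1.62 and 2.82 CPM in resting libraries 1 to 5 and 11.5, 1.32, 5.37, 2.04 and 5.76 CPM in day 7 libraries 1 to 5. The groups overlapped, with day 7 libraries 1, 3 and 5 above every resting library and library 2 below every one. The log2 fold change was 0.97 ± 0.51 (edgeR adjusted p = 0.138), and the call appeared without day 7 library 2 (1.23, adjusted p = 0.0295) and without the filter on low counts (1.08, adjusted p = 0.00224). Per kilobase of exon, Il4 exceeded Il13 by 31.4 to 47.7 times in the resting libraries and by 19.9 to 61.2 times in the grafts.

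Ccr3, the eotaxin receptor, measured 252, 472, 454, 159 and 442 CPM in resting libraries 1 to 5, so the resting libraries 1 and 4 with the least Il4 and Il13 also had the least Ccr3. In day 7 libraries 1 to 5 Ccr3 measured 171, 317, 329, 585 and 811 CPM, and the library with the most Il4 and Il13 had the least. Mcpt8, a basophil protease, measured 10.4, 1.09, 1.34, 7.71 and 2.22 CPM in resting libraries 1 to 5 and 82.2, 2.42, 46.2, 12.5 and 38.4 CPM in day 7 libraries 1 to 5. It was lowest in the same day 7 library as Il4 and Il13, library 2, and highest in the same one, library 1, whereas in resting lung it was highest in libraries 1 and 4, where Il13 was lowest. Mcpt8 rose at day 7 (log2 fold change 3.04 ± 0.82, edgeR adjusted p = 0.0086), a call that ended without the low-count filter (adjusted p = 0.0531). In the same marker list Kit, the stem cell factor receptor, fell from 140.3 ± 19.5 to 28.8 ± 1.70 CPM (-2.28 ± 0.12, edgeR adjusted p = 5.60e-09). Which cells carried Kit was not tested. Hdc, the histamine-forming enzyme, averaged 912 ± 69.9 CPM at rest and 1152 ± 621 CPM at day 7 (not called, adjusted p = 0.332), and the mast cell proteases Mcpt4 and Tpsb2 were at 0 in 5 and 4 resting libraries. The part of basophils in the graft values of Il4 and Il13 was not tested.

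Il6 (ENSMUSG00000025746, chr5:30013114-30019981, plus strand), the inflammatory cytokine, rose by a log2 fold change of 1.45 ± 0.27 (edgeR adjusted p = 0.000753). It measured 154, 136, 110.0, 101 and 124 CPM in resting libraries 1 to 5 and 549, 184, 344, 204 and 434 CPM in day 7 libraries 1 to 5. The groups did not overlap, and among the grafts libraries 2 and 4 were low and 1 and 5 high. Group means were 125 ± 21.2 and 343 ± 154 CPM (SD, n = 5).

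Il10 (ENSMUSG00000016529, chr1:131019845-131024974, plus strand), the cytokine that restrains macrophages and dendritic cells, rose from near the detection floor. It measured 2.44, 1.19, 0.52, 0.41 and 1.56 CPM in resting libraries 1 to 5, where counts ran from 3 to 23 per library, and 14.3, 22.3, 12.8, 5.47 and 7.70 CPM in day 7 libraries 1 to 5. The groups did not overlap, and graft library 2 was highest and library 4 lowest. The log2 fold change was 3.31 ± 0.47 (edgeR adjusted p = 7.50e-05). The complement gene C1qa, a macrophage marker, measured 299, 580.4, 304, 131 and 217 CPM in the same day 7 libraries and was likewise highest in library 2 and lowest in library 4, after 6.56 to 20.1 CPM in resting lung. The summed monocyte and macrophage markers measured 16492, 24704, 19000, 15717 and 12510 CPM in day 7 libraries 1 to 5. That sum was highest in library 2 but lowest in library 5. The part of macrophages in the rise of Il10 was not tested.

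In the interleukin-12 family the shared chain rose while its partner in interleukin-12 did not pass the test. Il12b (ENSMUSG00000004296, chr11:44400063-44414033, plus strand) measured 3.50, 0.20, 3.93, 2.43 and 1.19 CPM in resting libraries 1 to 5 and 14.4, 16.7, 9.80, 10.3 and 8.35 CPM in day 7 libraries 1 to 5. The groups did not overlap, and resting library 2 stood lowest, with 2 counts. The log2 fold change was 2.43 ± 0.46 (edgeR adjusted p = 0.000834).

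Il12a (ENSMUSG00000027776, chr3:68690644-68698547, plus strand), which encodes the chain found in interleukin-12 but not in interleukin-23, measured 4.13, 4.77, 5.27, 1.89 and 3.26 CPM in resting libraries 1 to 5 and 6.28, 3.41, 2.90, 1.58 and 0.92 CPM in day 7 libraries 1 to 5. Graft libraries 4 and 5 lay below every resting library and library 1 above every one. The log2 fold change was -0.37 ± 0.44 (edgeR adjusted p = 0.530). Per kilobase of exon, Il12b stood at 0.31 to 1.11 times Il12a in the 4 resting libraries with more than 3 counts of each, and at 1.98 to 7.88 times in the grafts.

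Il23a (ENSMUSG00000025383, chr10:128296139-128298752, minus strand), the specific chain of interleukin-23, had the largest rise of the 10 genes and the widest spread. It measured 4.66, 3.18, 2.79, 4.87 and 1.93 CPM in resting libraries 1 to 5 and 353, 135, 12.7, 8.30 and 13.3 CPM in day 7 libraries 1 to 5. Every graft library lay above every resting library, but graft libraries 1 and 2 stood far above the other 3. The log2 fold change was 4.93 ± 1.06 (edgeR adjusted p = 0.00198). Without graft library 1 it was 3.64 (adjusted p = 0.00257), and without both libraries 1 and 2, an alternative chosen after seeing these values, it was 1.76 (adjusted p = 0.000267).

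Among the 10323 genes with at least 5 CPM on average at day 7, the coefficient of variation of Il23a between the graft libraries ranked 3 from the top, at 1.43 against a median of 0.17. Tnf, the inflammatory cytokine, measured 1407, 660.5, 135, 94.0 and 130.4 CPM in day 7 libraries 1 to 5 and was also highest in libraries 1 and 2, whereas in resting lung it measured 92.0 to 165 CPM. Csf2, which encodes GM-CSF, was high in library 1 at 37.2 CPM but had its lowest value of the 5 grafts in library 2, at 1.48 CPM. The summed monocyte and macrophage markers of these 2 grafts were 16492 and 24704 CPM, within and above the 12510 to 19000 CPM of the other 3. Graft library 1 had the smallest sum of eosinophil markers of all 10 libraries, at 1321 CPM, and library 2 had 1631 CPM.

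**Figure D2:**
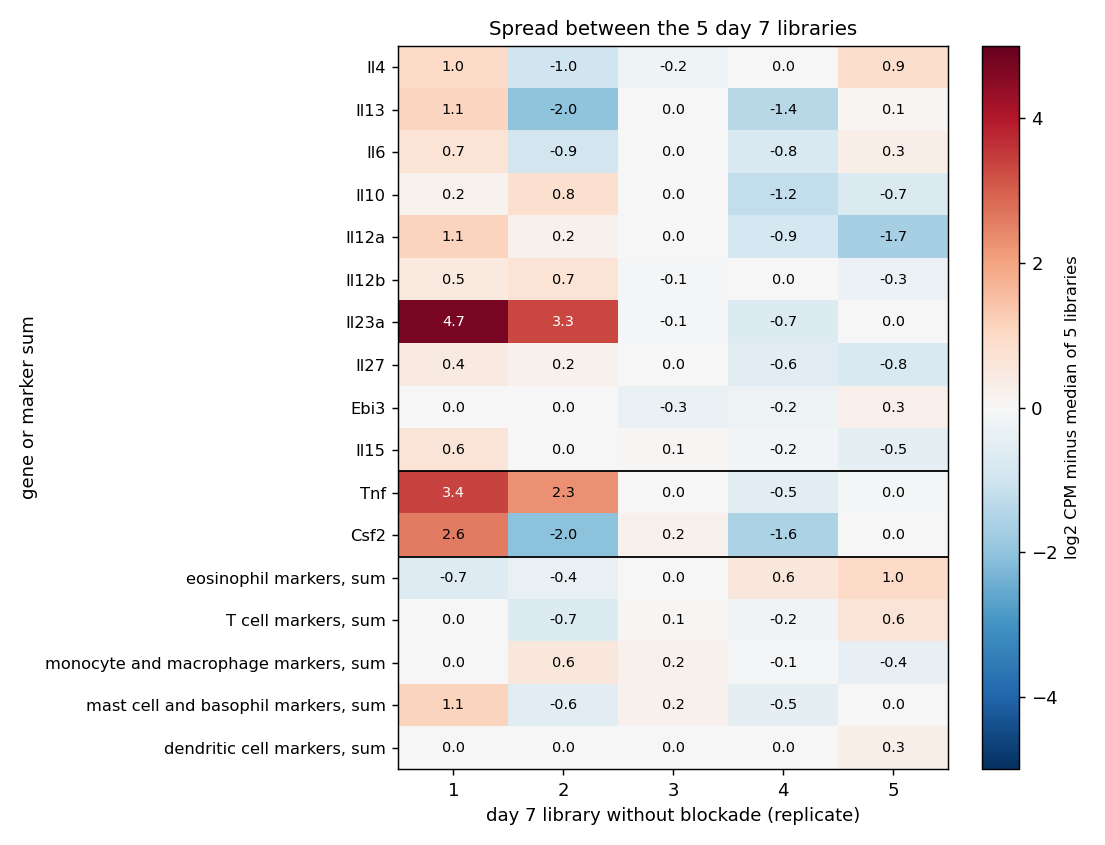
Spread of each interleukin gene, of Tnf and Csf2, and of summed cell type markers between the 5 day 7 graft libraries, as log2 CPM minus the median of the 5 (columns are libraries 1 to 5, red above and blue below the median). Il23a lies 4.74 and 3.35 above its median in libraries 1 and 2, and Tnf 3.38 and 2.29 above.

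Il27 (ENSMUSG00000044701, chr7:126589010-126594941, minus strand), the specific chain of interleukin-27, rose by a log2 fold change of 2.87 ± 0.33 (edgeR adjusted p = 8.67e-06). It measured 0.64, 1.69, 2.07, 2.30 and 2.37 CPM in resting libraries 1 to 5 and 19.0, 16.2, 14.0, 9.42 and 8.14 CPM in day 7 libraries 1 to 5, and the groups did not overlap. The summed eosinophil markers of the same day 7 libraries ran in the reverse order, at 1321, 1631, 2091, 3078 and 4089 CPM. The part of other cell types in the rise of Il27 was not tested. Its span shares 103 bases with Apobr on the opposite strand, and the sources used here do not give the strand setting of the counting.

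Ebi3 (ENSMUSG00000003206, chr17:55952640-55957022, plus strand), the partner of Il27, was abundant in both groups and rose by a smaller amount, 0.72 ± 0.14 on the log2 scale (edgeR adjusted p = 0.000963). It measured 29.1, 40.8, 45.4, 38.7 and 43.8 CPM in resting libraries 1 to 5 and 67.8, 67.1, 53.7, 57.0 and 79.8 CPM in day 7 libraries 1 to 5. The groups did not overlap, and its coefficient of variation was 16.1% in resting lung and 15.8% in the grafts, the latter the smallest of the 10 genes. Its span shares 2252 bases with the antisense gene Gm16712, so reads of the 2 cannot be told apart without strand. Per kilobase of exon, Ebi3 stood at 14.9 to 40.6 times Il27 in resting lung and at 3.16 to 8.68 times in the grafts.

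**Figure D3:**
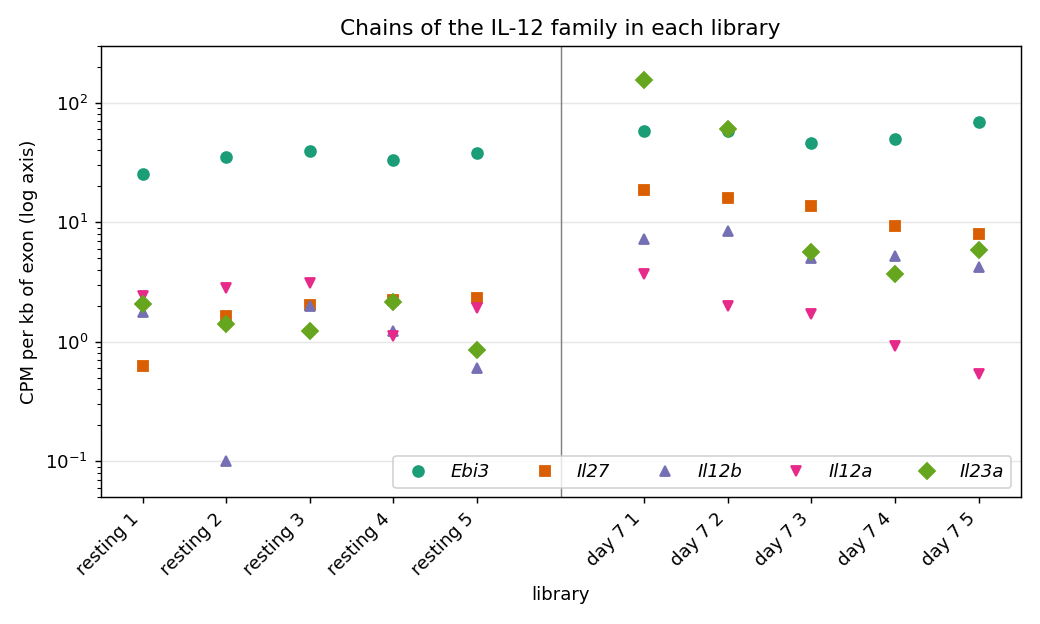
Chains of the interleukin-12 family in each library, as CPM per kilobase of annotated exon on a log axis; each symbol is 1 gene in 1 library, with resting libraries left of the line and day 7 grafts right of it. Ebi3 lies at 25.3 to 39.3 in resting lung and 46.5 to 69.1 in the grafts, and Il12a lies below the other 4 chains in every graft.

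Il15 (ENSMUSG00000031712, chr8:82331632-82403222, minus strand), the survival cytokine of natural killer and memory CD8 T cells, was called higher with a log2 fold change of 0.54 ± 0.18 (edgeR adjusted p = 0.0282), and this call was fragile. It measured 30.5, 25.6, 25.1, 27.9 and 22.0 CPM in resting libraries 1 to 5 and 56.9, 36.5, 37.8, 32.9 and 25.7 CPM in day 7 libraries 1 to 5. The groups overlapped, since graft library 5 lay below resting libraries 1 and 4. The call ended with library totals alone (0.33, adjusted p = 0.149), without resting library 2, 3 or 5 (0.52, 0.53 and 0.49, adjusted p = 0.0596, 0.0561 and 0.0664), without graft library 1 (0.36, adjusted p = 0.0589), and without graft libraries 1 and 2 together (0.32, adjusted p = 0.117).

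Ordered by CPM per kilobase of exon, the resting libraries had Il4 first at 81.1 ± 27.3, then Il6 at 51.5 ± 8.74, whose ranges overlapped, then Ebi3 at 34.3 ± 5.52 and Il15 at 11.6 ± 1.41 (SD, n = 5), each clear of its neighbours. The other 6 genes followed from Il12a at 2.27 ± 0.78 down to Il10 at 0.93 ± 0.63, and each overlapped the next. In the grafts Il6 came first at 141 ± 63.5, with Il4 at 127 ± 65.5 overlapping it, and Ebi3 next at 56.4 ± 8.91, below every graft value of Il6. Il23a followed by its mean of 46.4 ± 66.2, a mean set by libraries 1 and 2, and then came Il15 at 16.8 ± 5.13, Il27 at 13.1 ± 4.45, Il10 at 9.56 ± 5.01, Il12b at 6.05 ± 1.78 and Il13 at 4.31 ± 3.33, each overlapping the next. Il12a was last at 1.77 ± 1.22.

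Receptor chains for these cytokines divided by chain. Of the 14 chains listed, 12 could be tested, 7 rose and 1 fell, against 23.3% and 23.4% of all genes, and the median log2 fold change of those tested was 0.70. The remaining 2 had too few counts, Il13ra2, the decoy receptor of interleukin-13 (0 counts in each resting library and 1 and 2 counts in graft libraries 3 and 5), and Il23r, the specific receptor chain of interleukin-23 (at most 6 counts in resting lung and 19 in the grafts).

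Il12rb1, the chain shared by the interleukin-12 and interleukin-23 receptors, rose most. It measured 1.17, 0.89, 1.24, 1.62 and 0.74 CPM in resting libraries 1 to 5 and 18.2, 27.8, 18.4, 13.7 and 11.5 CPM in day 7 libraries 1 to 5, with no overlap (log2 fold change 4.02 ± 0.30, edgeR adjusted p = 1.46e-07). Its partner Il12rb2, needed for interleukin-12 signalling, averaged 42.9 ± 11.7 CPM at rest and 38.6 ± 5.85 CPM at day 7 and missed the threshold (-0.16 ± 0.18, adjusted p = 0.517). Its span shares 6419 bases with Serbp1 on the opposite strand.

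Il15ra, which presents interleukin-15 to neighbouring cells, measured 7.74, 9.05, 6.10, 7.44 and 6.67 CPM in resting libraries 1 to 5 and 67.3, 44.0, 42.2, 30.8 and 28.9 CPM in day 7 libraries 1 to 5 (log2 fold change 2.53 ± 0.23, edgeR adjusted p = 9.74e-07). Its graft values, like those of Il27, ran in the reverse order of the summed eosinophil markers, and the part of other cell types was not tested. Per kilobase of exon, Il15ra stood at 0.12 to 0.18 times Il15 in resting lung and at 0.48 to 0.61 times in the grafts, with no overlap. Il2rb and Il2rg, the chains that receive interleukin-15 and interleukin-2, both rose, Il2rb from 39.5 ± 6.48 to 180 ± 35.6 CPM, Il2rg from 233 ± 26.6 to 521 ± 46.5 CPM. Il2rb and Il2rg are also carried by T cells and natural killer cells, whose markers were higher in 12 of 12 and 4 of 7 cases.

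Il6st, the signal chain gp130 of the receptors for interleukin-6 and interleukin-27, was the chain that fell. It measured 236, 178, 219, 230.2 and 223 CPM in resting libraries 1 to 5 and 82.0, 67.8, 73.5, 56.7 and 34.2 CPM in day 7 libraries 1 to 5, with no overlap (log2 fold change -1.79 ± 0.20, edgeR adjusted p = 6.44e-06). Endothelial markers, lower in 7 of 7 cases, had sums of 1529 to 2124 CPM in resting and 78.5 to 133 CPM in graft libraries, and their part in the lower Il6st was not tested. Il6ra, the specific chain for interleukin-6, averaged 56.0 ± 11.9 CPM at rest and 52.6 ± 21.5 CPM at day 7 (not called, adjusted p = 0.825). Il27ra rose by 0.69 ± 0.18 on the log2 scale (adjusted p = 0.00679), a call that ended with library totals alone (0.50, adjusted p = 0.0553).

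Il10ra and Il10rb, the 2 chains of the interleukin-10 receptor, both rose, Il10ra from 193 ± 40.7 to 379.6 ± 75.0 CPM, Il10rb from 128 ± 13.6 to 210 ± 40.6 CPM, by 0.98 ± 0.17 and 0.71 ± 0.14 on the log2 scale (edgeR adjusted p = 0.000355 and 0.000877). The span of Il10rb shares 13288 bases with Gm21970 and that of Il2rg 3878 bases, its whole length, with Gm20489, on the same strand in each case. The counting settings are not given, so reads in the shared parts may have been split or left uncounted. Il4ra and Il13ra1, the chains that bind interleukin-4 and interleukin-13, were not called: Il4ra averaged 298 ± 23.1 CPM at rest and 411 ± 142 CPM at day 7 (adjusted p = 0.0805), and Il13ra1 118 ± 26.8 and 189 ± 84.5 CPM (adjusted p = 0.0764). Without graft library 5 both were called higher, at 0.62 and 0.88 on the log2 scale (adjusted p = 0.00396 and 0.00707). Il4ra was also called without the low-count filter (0.58, adjusted p = 0.000115), and Il13ra1 without graft library 4 (0.81, adjusted p = 0.0380).

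**Figure D4:**
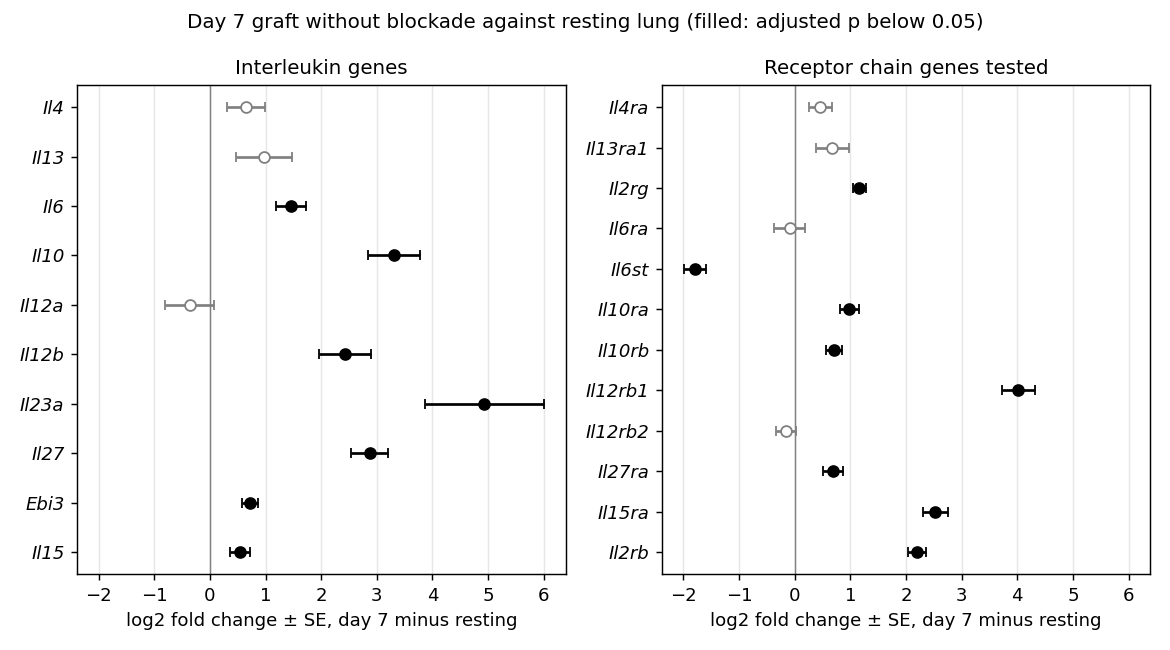
Log2 fold changes, day 7 graft without blockade minus resting lung, with standard errors, for the 10 interleukin genes (left) and the 12 receptor chains tested (right); filled points passed an adjusted p below 0.05 in edgeR's quasi-likelihood test with 5 libraries per group. Il23a has the largest rise among the interleukins, at 4.93, and Il6st is the filled point below 0.

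Kinases and STAT factors that carry these signals rose in 7 of 10 cases, and 1 fell, with a median log2 fold change of 0.74. Among all genes tested 23.3% were called higher and 23.4% lower, with a median of 0.05. Jak2, a kinase of the interleukin-12 and interleukin-23 receptors, rose from 61.5 ± 10.3 to 195 ± 32.5 CPM. Jak3, the kinase of the Il2rg chain, also rose, spanning 27.4 to 52.7 CPM in resting libraries and 61.7 to 121.9 CPM in grafts. Stat5b fell by 0.30 on the log2 scale (edgeR adjusted p = 0.0193), a call that ended without any 1 of resting libraries 2 and 4 and graft libraries 2 and 3 (adjusted p up to 0.0601) and without the low-count filter (adjusted p = 0.296). Stat6, the factor of interleukin-4, averaged 485 ± 70.6 CPM at rest and 426 ± 41.1 CPM at day 7 (not called, adjusted p = 0.257), whereas Stat3 and Stat4 rose by 0.88 and 0.93.

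Lineage transcription factors of helper T cells rose in 7 of 10 cases, and 1 fell, with a median of 0.87. The shares over all genes tested were 23.3% higher and 23.4% lower. Foxp3, of regulatory T cells, rose from 0.95 ± 0.61 to 5.13 ± 1.12 CPM, Tbx21, of type 1 cells, from 6.53 ± 1.37 to 24.3 ± 4.52 CPM, and Batf from 14.2 ± 1.55 to 39.7 ± 5.33 CPM. Gata3, of type 2 cells, averaged 5.38 ± 0.97 CPM at rest and 5.96 ± 1.26 CPM at day 7 (not called, edgeR adjusted p = 0.577). T cell markers were higher in 12 of 12 cases in the same libraries.

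Of 12 other lymphokine genes 8 had too few counts to be tested, among them Il5, Il9, Il17a, Il17f, Il21 and Il22, together with Il2 and Il3. Il9 had no count in any library. Of the 4 tested, 3 rose, against 23.3% of all genes, with a median of 2.08. Ifng, the type 1 effector cytokine, measured 1.48, 0.40, 0.62, 0 and 0.89 CPM in resting libraries 1 to 5 and 14.8, 5.99, 24.8, 17.1 and 74.8 CPM in day 7 libraries 1 to 5, and the groups did not overlap (log2 fold change 5.26 ± 0.75, edgeR adjusted p = 8.45e-05, and 4.46 without graft library 5). Csf2 and Tnf were called higher at 2.25 and 1.90 on the log2 scale (adjusted p = 0.034 and 0.0306), but the groups overlapped and both calls ended without graft library 1, at 0.92 and 0.99. The call of Tnf also ended without graft library 2 or resting library 1, 3 or 4, and that of Csf2 without resting library 1, 2 or 5 (adjusted p up to 0.121 and 0.157). Both ended without the low-count filter (adjusted p = 0.111 and 0.116), and that of Csf2 with library totals alone (adjusted p = 0.052).

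Among 14 genes known to respond to STAT6, 6 rose, 3 fell and 5 did not pass, beside 23.3% higher and 23.4% lower among all genes tested. Their median log2 fold change was 0.09, beside 0.05 for all genes tested. Arg1, the macrophage arginase, rose from 2.28 ± 1.07 to 278 ± 175 CPM, Retnla from 37.1 ± 9.79 to 1477 ± 1640 CPM, and the eotaxin gene Ccl24 from 2.80 ± 1.44 to 13.8 ± 8.70 CPM. Retnla reached 4345 CPM in graft library 5, and its log2 fold change of 5.31 was 4.36 without that library. The lectin gene Mgl2, the ribonuclease gene Ear2 and the chemokine gene Ccl17 fell, with log2 fold changes of -2.04, -1.97 and -1.80. Ear2 is also 1 of the 11 eosinophil markers listed, of which 6 were lower. Monocyte and macrophage markers, from cells that express Arg1 and Retnla, were higher in 12 of 14 cases. In graft library 5, where Retnla peaked, their sum was the lowest of the grafts, at 12510 CPM. The eosinophil marker sum was highest in that library, at 4089 CPM. Arg1 instead peaked in graft library 2, at 566 CPM, where the monocyte and macrophage sum was highest, at 24704 CPM. The part of monocytes and macrophages in the rises of Arg1 and Retnla was not tested.

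Among 14 STAT3 response genes 6 rose, 1 fell and 7 did not pass, against 23.3% higher and 23.4% lower among all genes. Their median log2 fold change was 0.43, beside 0.05 for all genes tested. Saa3, an acute phase protein gene, rose from 1.84 ± 1.21 to 277 ± 102 CPM, and Nfil3 from 58.1 ± 9.36 to 256 ± 52.3 CPM. Tnip3, an inhibitor of NF-kB signalling, rose as well, spanning 13.4 to 19.1 CPM in resting libraries and 54.8 to 132 CPM in grafts. Cebpd fell from 214 ± 49.9 to 24.1 ± 6.44 CPM, and Socs3, the feedback inhibitor induced by interleukin-6, averaged 451 ± 71.4 CPM at rest and 531 ± 278 CPM at day 7 (not called, edgeR adjusted p = 0.569). Among 12 response genes of interleukin-12 and interleukin-15, 8 rose and none fell, with a median of 1.40, against 23.3% and 23.4% of all genes. They include Ifng, the lymphocyte chemokine Xcl1, from 1.07 ± 0.31 to 39.8 ± 46.2 CPM, and the granzyme gene Gzmb, from 44.2 ± 10.8 to 282 ± 92.7 CPM. Xcl1 reached 122 CPM in graft library 5, and its log2 fold change of 5.22 was 4.18 without that library. The genes of this last list are typical of T cells and natural killer cells.

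Likeness between each interleukin gene and other named protein-coding genes was measured as the root mean square difference of log2(CPM + 1), each gene centred on its own mean, over the 10 libraries and 10113 candidate genes with at least 5 CPM. Values are in log2 units, smaller is more alike, and the shared group difference and library effects enter them. Nearest to Il4 were Slc18a2, a vesicular monoamine transporter, and Siglecf, at 0.30 and 0.31. Nearest to Il13 were Slc18a2 and Il4, at 0.37 and 0.38, so each type 2 gene shared its closest neighbour. Gadd45a, a stress-induced gene, lay at 0.30 from Il6.

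Nearest to Il10 were Sh3pxd2b and the membrane metalloproteinase gene Mmp14, at 0.32 and 0.34. Nearest to Il27 were Parp12 and Slfn8, both interferon-induced genes, at 0.26 and 0.28, and nearest to Il12b were the leukotriene receptor gene Cysltr1 and Sdc3, at 0.40 and 0.43. The closest genes to Il12a were P2ry12 and Tmx4, at 0.32 and 0.35, those to Ebi3 Ube2j2 and Noc2l, at 0.12 and 0.14, and those to Il15 Wdr7 and Rab7, at 0.12 and 0.13. Distances were largest for Il23a, with Gpr84, a receptor for medium-chain fatty acids, at 0.62 and Tgtp1, an interferon-induced GTPase, at 0.95. The measure is not scaled to a gene's own spread, which between the grafts was widest for Il23a. Gpr84 measured 2.69 to 5.54 CPM in resting libraries and 16.6 to 360.3 CPM in the grafts.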

How the data were processed

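Gene counts came from RNA sequencing of sorted lung eosinophils, with 5 libraries per group. The authors deposited raw counts per gene, whole numbers that are not normalized. Per the submitters' processing notes, which name mm10, reads passed through software that included STAR 2.5.2b, Trimmomatic 0.36, bcl2fastq 2.17, Subread 1.5.2 and featureCounts; the sources used here do not give settings, strand or annotation release. A further 10 columns whose headings match no label were not used. The 2 deposited tables were joined on 49315 gene identifiers; symbols, spans and exon lengths came from GENCODE M21 (mm10), which named 48970 of them. Spans are whole genes.

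After edgeR's filterByExpr, which removed 32815 genes, 16500 remained, and edgeR 4.0.16 under R 4.3.3 tested them (quasi-likelihood F test, robust dispersion, TMM scaling, group as the only term), with Benjamini-Hochberg adjustment over all genes and a threshold of 0.05. CPM values use TMM-scaled totals. Each standard error was obtained from the log2 fold change and the F statistic (absolute change over root F). A floor of 3 counts equals 0.23 to 0.45 CPM in resting and 0.11 to 0.19 CPM in day 7 libraries and covers only counting error. All library pairs of a group differed beyond sampling noise (chi-square per degree of freedom of at least 6.57). The test was tried first on simulated counts, in which far fewer genes changed than were called here. That trial does not cover a comparison with this many changes. DESeq2 1.42.0 was an alternative.

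The interleukin genes, the 7 pathway lists and the 10 marker lists were chosen with earlier results of these data known. Named genes are the interleukins, the receptor chains, up to 3 called rises and falls of each pathway list, up to 3 abundant markers of each list, and the 2 nearest genes by likeness; Siglecf, C1qa, Apobr, Serbp1, Gpr84, Mcpt4, Tpsb2, Stat3, Stat4, Stat6, Gata3 and Socs3 were named beside these after their values were seen. A few genes that the rule selects are not reported here.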

Additional observations from a re-analysis of the deposited data

Results flagged for a closer look

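Among 115 sets of 5 libraries checked, 7 had 1 library standing apart from the other 4 by Dixon's ratio; chance alone gives about 1 in 20. For the receptor chain Il10ra, resting library 4 had 262 CPM against 160 to 189 CPM in the others. At day 7, library 1 stood apart for Jak3, with 122 CPM against 61.7 to 73.2, and for Csf2, with 37.2 CPM against 1.48 to 7.22. Day 7 library 5 stood apart for Ifng, with 74.8 CPM against 5.99 to 24.8, for Xcl1, with 122 CPM against 9.89 to 25.7, and for Retnla, with 4345 CPM against 264 to 1235. For Saa3, resting library 1 had 3.92 CPM against 0.80 to 1.65. None of the 10 interleukin genes met this criterion; Il23a at day 7 had 2 high libraries, which a search for 1 outlying value does not pick out.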

How the results depend on the processing

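Scaling to library totals alone gave 2495 genes higher and 4883 lower (33.8% of calls higher), against 3843 higher and 3859 lower (49.9% higher) as reported, and it moved the median change over all genes tested from 0.05 to -0.14. DESeq2 and the fit without a low-count filter called 6216 and 6715 genes lower (39.2% and 42.0% of calls higher). The count of interleukin genes called higher was 6 to 9 over all 18 alternatives and the count called lower was 0 in each; for receptor chains the counts were 6 to 9 higher and 1 lower. Il6, Il10, Il12b, Il23a, Il27 and Ebi3 kept their direction and call in all 18. Replicate numbers did not pair the libraries (correlations of same-numbered deviations from -0.25 to 0.16); with the replicate block 3317 genes were higher and 3636 lower, 7 interleukin genes stayed called higher, and Il23a had a log2 fold change of 3.63. Leaving out 1 library at a time gave 3507 to 3976 genes higher and 3669 to 4020 lower, 6 to 9 interleukin genes higher and 7 to 9 receptor chains higher. The resting libraries are the shallower ones; thinned to the shallowest library's total, 7 interleukin genes were still called higher.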
